A study of Equus caballus with 17 samples.

Results

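The miR-202 hairpin is 1 predicted hairpin among the 1763 entries of a small RNA table of horse (Equus caballus) testis and sperm. It was chosen by its identifier, 1_1707588, with earlier results of these data known. The table holds 1461 predicted hairpins and 302 entries of annotated mature miRNAs, and none of the annotated entries is named miR-202. The table gives the hairpin no name of its own, so the name rests on its sequence, printed below. Its count is 1 value per library for the whole hairpin, so reads of the 5′ arm and of the 3′ arm cannot be separated.

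The libraries came from testis at 4 stages, which the labels call Infant (31a, 31b and 30), Pre-puber (3a, 3b and 14), Puber (10, 11 and 19) and Adult (13, 20, 33 and 4), and from Sperm (1, 2, 3 and 4). The labels give no breed, age in years or treatment, and nothing in them states that replicates came from different animals, so the p-values given here reflect the spread between libraries, which may be technical. Infant 31a and 31b share a title number, as do Pre-puber 3a and 3b. Sperm RNA was treated with DNase for a shorter time than testis RNA and then purified with phenol and chloroform, so for Sperm against Adult the tissue and the extraction cannot be told apart.

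miR-202 is a vertebrate miRNA known for its expression in the gonads. In the fetal mouse testis it is expressed in Sertoli cells, the somatic cells that support germ cells, downstream of the testis-determining factor SOX9. In mouse it is also expressed in germ cells, where its loss disturbs the timing of spermatogonial differentiation and meiosis. A miRNA is cut from a hairpin whose arms each can give a mature product, and bases 2 to 8 of that product, the seed, select the messenger RNAs it binds.

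The hairpin lies at chr1:594419-594474 on the plus strand of EquCab3.0, 56 bases long, and its sequence is shown because it carries both arms and the identity of the entry. A second hairpin is printed beside it, because it is the predicted hairpin whose bases 2 to 8 are the let-7 seed GAGGUAG. That hairpin, 6_4351986, lies at chr6:80187889-80187965 on the plus strand. Capitals mark bases 2 to 8 in both and, in the miR-202 hairpin, also the run at bases 38 to 44 of the 3′ arm.
1_1707588 (miR-202 hairpin): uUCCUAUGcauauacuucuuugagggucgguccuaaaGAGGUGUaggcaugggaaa
6_4351986: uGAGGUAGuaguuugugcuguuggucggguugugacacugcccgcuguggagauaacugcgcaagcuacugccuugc

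The first base of the hairpin is taken as the start of the 5′ product, since the table gives no arm boundaries, and UCCUAUG is then the 5′ seed. No other predicted hairpin held UCCUAUG on its own strand, and 4 of 1461 (0.274%) held it on either strand, the miR-202 hairpin included. In human the 3′ product of miR-202 begins 1 base before GAGGU, and in the horse hairpin the run GAGGUGU stands there. GAGGUGU and the let-7 seed GAGGUAG share their first 5 letters, GAGGU, which 9.45% of the predicted hairpins held on either strand. The letters GAGGUGU occurred in 0.479% and GAGGUAG in 0.890% of them. These matches are a description of letters and were not tied to any target.

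The miR-202 hairpin folded into a single stem with 23 base pairs and a loop of 6 bases, at a predicted free energy of -29.3 kcal/mol. All 7 bases of each capitalised run were paired. Per base the energy was -0.523 kcal/mol, against a median of -0.328 over the 1461 predicted hairpins, and 10.3% of them had a lower energy per base. The longest run it shared with another predicted hairpin was 10 bases, whereas 587 predicted hairpins (40.2%) shared a run of 18 bases with another. The nearest other predicted hairpin on the chromosome lay 310586 bases away.

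Library depth, summed over the whole table, lay between 1.94 and 17.9 M (mega) counts. Annotated miRNAs, 1 entry for each of 274, took 1.48 to 13.1 M of these. The mean annotated depth was highest for Infant libraries, at 10.5 ± 1.61 M (SD, n = 3), and lowest for Sperm libraries, at 1.80 ± 0.358 M (n = 4). Levels are given in CPM, counts scaled to a fixed total of annotated miRNA counts, after TMM scaling over all 17 libraries, a correction for library composition. Each read stands for a whole small RNA, so levels of entries are compared without a correction for length. Differences between sequences in how well they are captured or amplified were not corrected. Counting error was small in testis, where the lowest count was 29592, and larger in Sperm.

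The miR-202 hairpin was present at every testis stage, and it was 5.27-fold higher in Pre-puber than in Infant testis and almost lost in Sperm. Infant 31a, 31b and 30 held 12270, 10790 and 3111 CPM. Pre-puber 3a, 3b and 14 held 41920, 35560 and 60360 CPM. Infant 30 was the lowest testis library, and all 3 Pre-puber libraries lay above all 3 Infant libraries. In Puber 10, 11 and 19 the level was 45770, 64430 and 42210 CPM. In Adult 13, 20, 33 and 4 it was 44580, 62070, 96570 and 50110 CPM. The Pre-puber, Puber and Adult libraries overlapped one another, and Adult 33 was the highest of all libraries. In Sperm 1, 2, 3 and 4 the level was 307, 279, 162 and 90.7 CPM.

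The Sperm levels rested on 668, 568, 131 and 92 counts, with exact 95% Poisson intervals of 284 to 331, 256 to 303, 135 to 192 and 73.1 to 111 CPM, which cover counting error only. Sperm 1 and 2 lay above Sperm 3 and 4 by more than that error, and all 4 lay below every testis library. Means with their SD were 8724 ± 4917 CPM for Infant, 45950 ± 12880 CPM for Pre-puber and 50810 ± 11940 CPM for Puber (n = 3 each). They were 63330 ± 23330 CPM for Adult and 209.5 ± 101 CPM for Sperm (n = 4 each). From low to high the order was Sperm, Infant, Pre-puber, Puber and Adult. The libraries of the 3 highest groups overlapped, and the means of these groups lay within 1 SD of the Adult mean. Sperm and Infant did not overlap, but this pair was not tested, and the share of other entries that separate these groups was not counted. For Sperm against Adult, 52.3% of all entries and 71.6% of annotated miRNAs did not overlap.

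**Figure D1:**
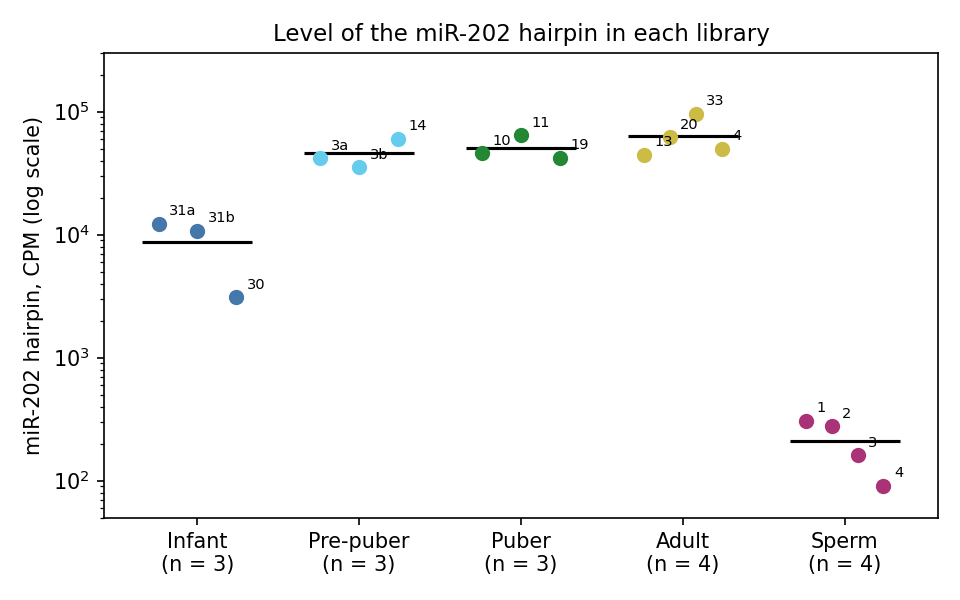
Level of the miR-202 hairpin in CPM, on a log scale, in each of the 17 libraries by group. Points are libraries labelled by their title numbers, and horizontal lines are group means, from 209.5 CPM in Sperm to 63330 CPM in Adult. The highest Sperm library lies at 307 CPM and the lowest of the 13 testis libraries at 3111 CPM.

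As a share of all counts in the deposited table, the hairpin held 0.481 ± 0.215% for Infant, 3.44 ± 0.996% for Pre-puber and 4.74 ± 1.09% for Puber (mean ± SD, n = 3 each). The share was 6.23 ± 3.42% for Adult and 0.0138 ± 0.00960% for Sperm (n = 4 each). Ranked by count among the annotated miRNAs and itself, 275 entries, it was at position 15, 17 and 30 in the Infant libraries, 9, 10 and 9 in Pre-puber 3a, 3b and 14, and 10, 5 and 5 in Puber 10, 11 and 19. In Adult it was at position 9, 7, 1 and 9, first in Adult 33. In Sperm it was at position 57, 61, 76 and 74. The hairpin is counted whole, whereas an annotated entry is 1 mature miRNA, so reads of both arms may raise the positions of the hairpin. Its neighbours by mean level in Adult were miR-10b, from a HOX gene cluster, at 74130 ± 27570 CPM, and miR-100 at 56300 ± 11590 CPM (SD, n = 4 each). The highest annotated mean in Adult was that of miR-21 at 102900 CPM. In Sperm, where miR-191a led at 555800 CPM, the hairpin stood between miR-194 at 227 ± 52.9 CPM and miR-18a at 187 ± 48.5 CPM (n = 4 each). In Infant it stood between miR-450b-5p and miR-99b, in Pre-puber between miR-100 and let-7f, and in Puber between let-7a and miR-509a-5p. miR-99a led the annotated miRNAs at these 3 stages.

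Over the 4 testis stages together, the miR-202 hairpin differed between stages (edgeR quasi-likelihood F = 13.7, adjusted p = 0.000513). The call was common: 84.5% of the 903 entries tested were called over the stages, as were 48.4% of the 182 annotated miRNAs among them.

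Pre-puber against Infant testis bears on changes that precede puberty. The hairpin rose 5.27-fold (log2 fold change 2.40 ± 0.46 SE, edgeR adjusted p = 0.00126), with 35560 to 60360 CPM in Pre-puber and 3111 to 12270 CPM in Infant. Of the 903 entries, 57.9% were called higher, and of the annotated miRNAs 18.7%. The median log2 fold change was 4.00 over all entries and 0.29 over the annotated miRNAs, and the hairpin had the 32nd highest of 183 log2 fold changes when ranked with the annotated miRNAs. The groups did not overlap, as for 40.3% of all entries and 33% of annotated miRNAs.

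The Pre-puber libraries differed among themselves in miR-34c, a miRNA abundant in meiotic and later germ cells. Pre-puber 3a, 3b and 14 held 40.4, 65.4 and 2272 CPM of miR-34c, against 36.9, 22.3 and 12.2 CPM in Infant 31a, 31b and 30. Pre-puber 3a and 3b, which share a title number, held 41920 and 35560 CPM of the hairpin beside these low levels of miR-34c. Without Pre-puber 14 the log2 fold change of the hairpin was 1.94 (edgeR adjusted p = 0.00113). Only 3a and 3b, of 1 title number, then stood for Pre-puber, so that p may not reflect a spread between animals. With libraries of 1 title number summed and all libraries kept, the log2 fold change was 2.73 (edgeR adjusted p = 0.00289). Members of the germ cell and X-linked lists were also called higher in Pre-puber than in Infant testis, as were 57.9% of all entries and 18.7% of annotated miRNAs. The list of miR-34b, miR-34c and the miR-449 group had 3 of 4 members called higher and none lower (edgeR, median log2 fold change 4.66). Its Pre-puber sums were 48.3 CPM (3a), 74.6 CPM (3b) and 2858 CPM (14), against 14.8 to 42.8 CPM in Infant. The X-linked miR-506 region, a cluster expressed in testis, had 5 of 5 called higher (median 5.22), and its Pre-puber sums were 11070 CPM (3a), 3833 CPM (3b) and 25780 CPM (14), against 147 to 303.7 CPM in Infant. The list of undifferentiated spermatogonia had 2 of 5 called higher and none lower (median 0.30), and its median was -0.10 with scaling from all entries and -0.02 with upper-quartile scaling. The part of germ cells in the rise of the hairpin was not tested.

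Puber and Adult testis were also higher than Infant testis. Puber held 5.82-fold more than Infant (log2 fold change 2.54 ± 0.46 SE, edgeR adjusted p = 0.000292), where 77.1% of all entries and 22% of annotated miRNAs were called higher, and 84.5% and 51.1% had groups that did not overlap. Adult held 7.26-fold more than Infant (log2 fold change 2.86 ± 0.45 SE, edgeR adjusted p = 9.1e-05), where 79.7% of all entries and 30.2% of annotated miRNAs were called higher, and 84.1% and 50.5% had groups that did not overlap. The median annotated log2 fold change was 0.15 in that comparison, and the hairpin was again at position 32 of 183. These comparisons share the Infant libraries, so they do not count as separate evidence of the low Infant level. With scaling factors from all entries, predicted hairpins included, the log2 fold change was 0.34 for Puber against Infant and 0.15 for Adult against Infant, and both calls ended. In that scaling the median annotated miRNA lay at -2.36 and -2.83, and the hairpin lay 2.71 and 2.99 above that median, against 2.51 and 2.71 above it in the scaling used here.

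Between Pre-puber, Puber and Adult no difference passed the test. Puber against Pre-puber gave a log2 fold change of 0.15 (95% interval -0.70 to 0.99, edgeR adjusted p = 0.793), where 37.8% of all entries and 9.34% of annotated miRNAs were called. Adult against Puber gave 0.32 (-0.48 to 1.12, edgeR adjusted p = 0.758), where 0% were called and 53 of 903 entries had an unadjusted p under 0.05. DESeq2 called 0 entries and limma-voom 3 in that comparison. Adult against Pre-puber gave 0.46 (-0.34 to 1.26, edgeR adjusted p = 0.317), where 74.6% of all entries and 34.6% of annotated miRNAs were called. With scaling factors from all entries these 3 values took the other sign, at -1.90 (edgeR adjusted p = 0.0177), -0.19 and -2.09 (edgeR adjusted p = 0.00384), where the hairpin lay 0.49, 0.19 and 0.70 above the median annotated miRNA.

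**Figure D2:**
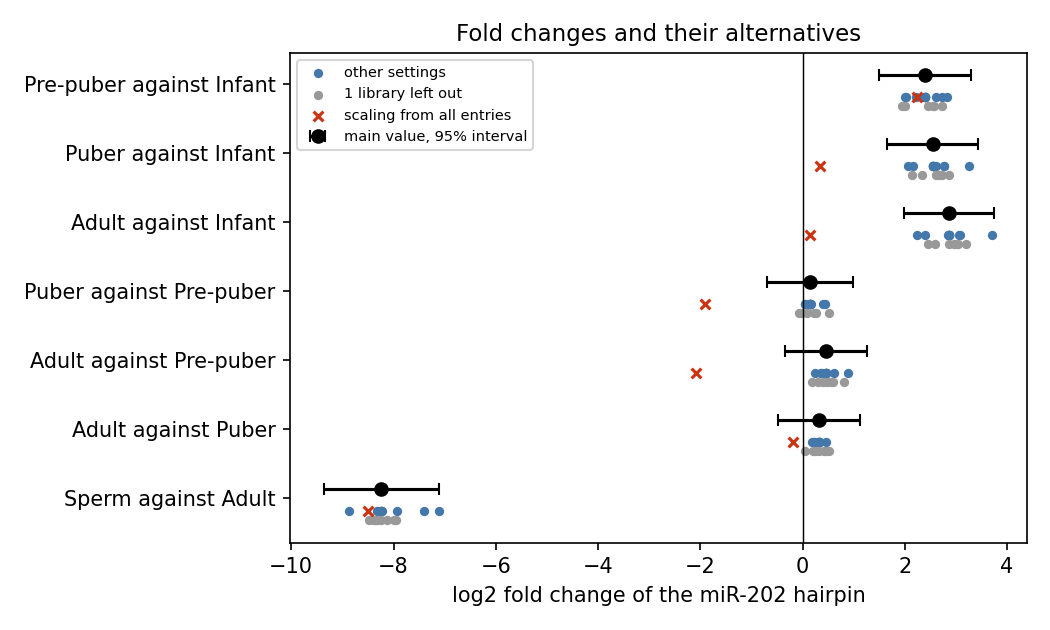
Log2 fold change of the miR-202 hairpin in 7 comparisons, the first-named group over the second. Black points are the main values with 95% intervals, blue points other settings, red crosses scaling from all entries and grey points fits with 1 library left out. The 3 comparisons with Infant lie near 2.40 to 2.86, those among the later stages near 0, and Sperm against Adult at -8.24. The red crosses depart from the black points for Puber or Adult against an earlier group.

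The comparison of Sperm with Adult testis asks which small RNAs differ between sperm and the tissue it forms in. The hairpin was 301-fold lower in Sperm (log2 fold change -8.24 ± 0.58 SE, edgeR adjusted p = 5.4e-10), with 90.7 to 307 CPM in Sperm and 44580 to 96570 CPM in Adult. Of 775 entries tested, 32.9% were called lower, and of 162 annotated miRNAs 48.1%. The groups did not overlap, as for 52.3% of all entries and 71.6% of annotated miRNAs. The median annotated log2 fold change was -0.81, and the hairpin had the 15th lowest of 163 values when ranked with the annotated miRNAs. By raw p it was the 3rd of the 775 entries. The exact size moved with the scaling, from -8.87 without scaling to -7.10 with upper-quartile scaling, and it stayed 7.26 to 7.57 below the median annotated miRNA in all 6 scalings.

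**Figure D3:**
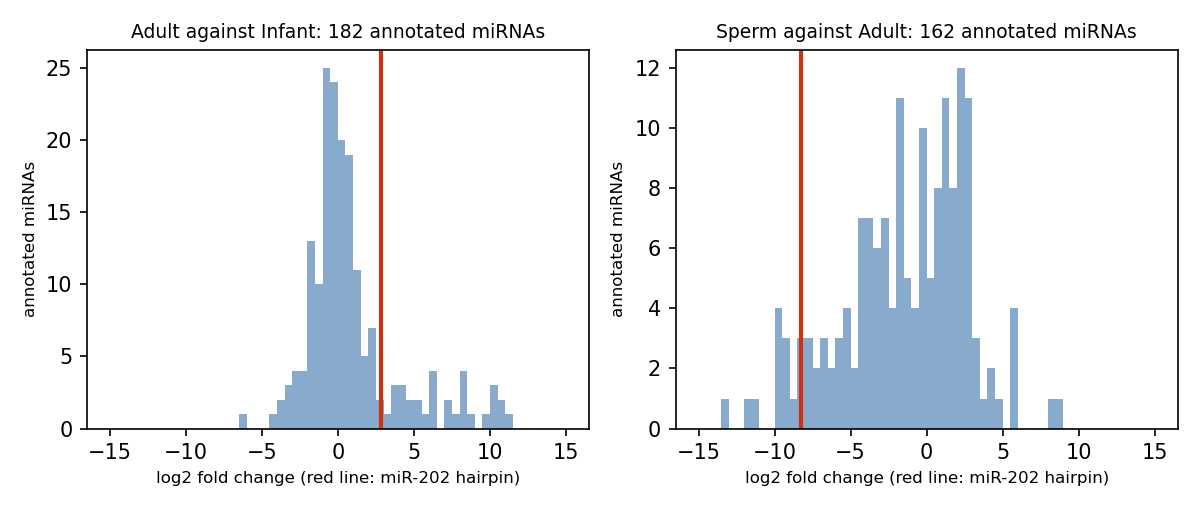
Number of annotated miRNAs by log2 fold change, for Adult against Infant on the left and Sperm against Adult on the right. The red line marks the miR-202 hairpin, at 2.86 on the left, within the upper tail of the annotated miRNAs, and at -8.24 on the right, within the lower tail.

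An exact two-sided permutation test on log2(CPM + 1) over the libraries alone gave p = 0.0286 for Sperm against Adult and for Adult against Infant, the smallest that these group sizes allow, and an adjusted p = 0.10 for each over the 7 comparisons. For Pre-puber and for Puber against Infant the exact permutation p was 0.10, the smallest that 3 against 3 libraries allow. The other exact permutation p-values were 0.50 for Puber against Pre-puber, 0.486 for Adult against Puber and 0.257 for Adult against Pre-puber. None of the 7 passed after adjustment.

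Over all 17 libraries, the annotated miRNA whose log2 level was most like that of the hairpin was miR-509a-5p, of an X-linked family expressed in testis, with Pearson's r = 0.97 and Spearman's rho = 0.86. The next were miR-145, a miRNA of smooth muscle (r = 0.96), miR-374b (0.95), miR-497 (0.94) and miR-100 (0.94), where the median over 118 annotated miRNAs with a mean of at least 50 CPM was 0.38. All entries share their libraries and scaling, and the 4 Sperm libraries lie apart from the 13 testis libraries in these values. miR-190b (-0.94), miR-186 (-0.94) and miR-30e (-0.91) were the least like it. The most alike predicted hairpins, X_5273545 (0.88), 11_369418 (0.88) and the let-7 seed hairpin 6_4351986 (0.75), had rho from 0.21 to 0.51.

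Within the 13 testis libraries the order was led by miR-514a (r = 0.93), miR-8908j (0.92), miR-509a-5p (0.92), miR-8908g (0.91) and miR-17 (0.87), against a median of 0.01 over 112 annotated miRNAs. The Infant libraries lay below all other testis libraries in the hairpin and in miR-509a-5p. Likeness within the later stages alone was not computed. By Spearman's rho over the 13 libraries miR-8908j came first (0.93), miR-509a-5p 11th (0.70) and miR-514a at position 13.5 (0.69). let-7d (-0.86), miR-411 (-0.85) and miR-135a (-0.79) were the least like the hairpin by Pearson's r. The level of miR-509a-5p was 239 ± 81.4 CPM for Infant, 13190 ± 10830 CPM for Pre-puber and 24660 ± 3164 CPM for Puber (mean ± SD, n = 3 each). It was 5.98 ± 3.02 CPM for Sperm and 19210 ± 4704 CPM for Adult (n = 4 each). miR-8908j shared the low Infant level, at 22.3 ± 13.0 CPM, but stood at 11940 ± 5854 CPM in Sperm. Likeness within testis thus did not carry over to Sperm for that miRNA.

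**Figure D4:**
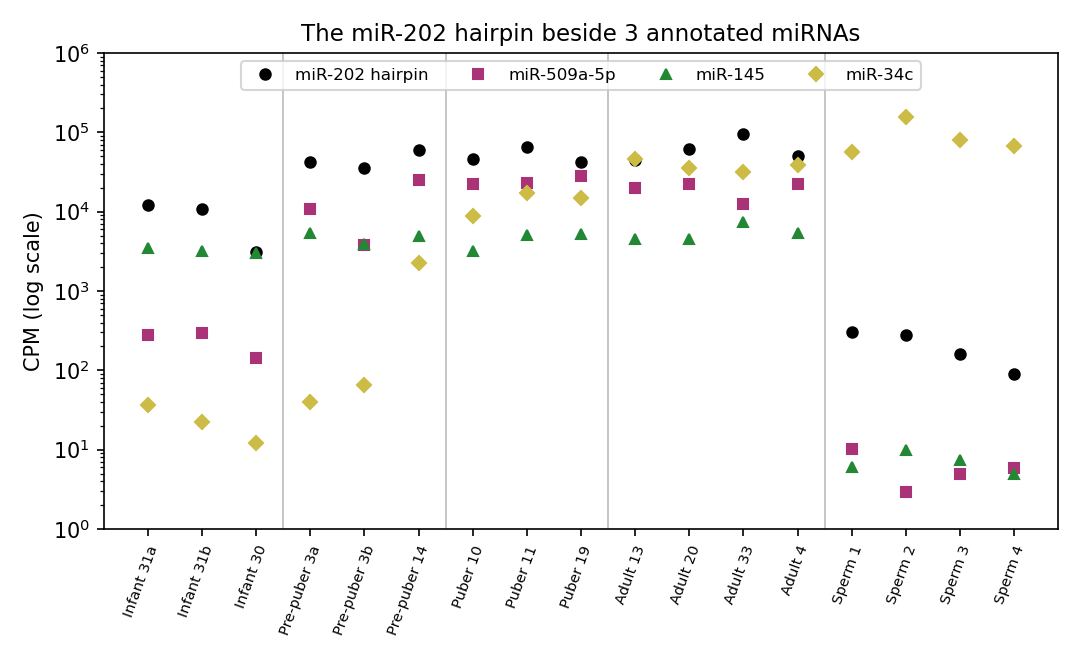
CPM on a log scale of the miR-202 hairpin, miR-509a-5p, miR-145 and miR-34c in each of the 17 libraries, grouped by stage and then Sperm. In Pre-puber 3a and 3b the hairpin stands at 41920 and 35560 CPM beside 40.4 and 65.4 CPM of miR-34c. In Sperm the hairpin, miR-509a-5p and miR-145 lie below their testis levels and miR-34c does not.

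Lists of miRNAs that mark other cells give the setting of these values. In Adult against Infant testis, 79.7% of all entries and 30.2% of annotated miRNAs were called higher. In Sperm against Adult, 32.9% and 48.1% were called lower, and 214 of 775 entries were called higher. The germ cell list (miR-34b, miR-34c and the miR-449 group) summed to 39280 to 57020 CPM in Adult and 14.8 to 42.8 CPM in Infant. All 4 tested members were called higher in Adult than in Infant (edgeR, median log2 fold change 10.5). In Sperm the list summed to 82240 to 216100 CPM, and all 4 were called higher than in Adult (median 1.88), against 2 of 4 without scaling and 3 of 4 with scaling from all entries. The hairpin and this list therefore both rose in testis and moved in opposite directions in Sperm. All 5 members of the X-linked miR-506 region were called higher in Adult than in Infant (median 5.28), against 4 of 5 with scaling from all entries. The 4 tested were called lower in Sperm, where the list summed to 2.94 to 10.1 CPM against 12950 to 22720 CPM in Adult, and 4 of 5 had no count in Sperm.

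In Sperm the stroma, smooth muscle and endothelial miRNAs were low, while other somatic lists were not. Against Adult, 32.9% of all entries and 48.1% of annotated miRNAs were called lower in Sperm, and 214 of 775 entries were called higher. The median annotated log2 fold change was -0.81. The stroma and smooth muscle list summed to 41.4 to 122 CPM in Sperm, against 13140 to 20090 CPM in Adult, and all 3 members were called lower (edgeR, median log2 fold change -7.83). miR-145 stood at 7.03 ± 2.11 CPM in Sperm and 5471 ± 1323 CPM in Adult (SD, n = 4 each), and miR-199a-5p at 43.5 ± 28.2 CPM in Sperm and 9766 ± 2740 CPM in Adult. The endothelial miR-126-5p stood at 31.5 ± 8.50 CPM in Sperm and 474 ± 217 CPM in Adult and was called lower. The blood cell list summed to 921.9 to 3724 CPM in Sperm and 947.8 to 4438 CPM in Adult, with 1 of 4 called higher (miR-451) and 1 lower (miR-150), and its median of -0.59 turned to 0.43 with upper-quartile scaling. Without scaling 0 were called higher and 3 lower (median -1.57). The liver miRNA miR-122 stood at 16010 ± 7254 CPM in Sperm and 41.9 ± 19.7 CPM in Adult. Both neural entries, miR-9a and miR-124, were called higher in Sperm (1 of 2 without scaling), with miR-9a at 1157 ± 286 CPM in Sperm and 419 ± 95.9 CPM in Adult. The part of any of these cells in the level of the hairpin was not tested, and in whole tissue fewer cells of a type and less RNA per cell cannot be told apart.

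In Adult against Infant testis 79.7% of all entries and 30.2% of annotated miRNAs were called higher, and 49 of 903 entries were called lower. The stroma and smooth muscle list gave 1 member higher, miR-145, and 2 lower (edgeR, median log2 fold change -1.38). It summed to 13140 to 20090 CPM in Adult and 30110 to 41270 CPM in Infant. The call of miR-145 ended with TMM scaling within the 13 testis libraries and with upper-quartile scaling, and all 3 members were called lower with scaling from all entries. The summed levels in Pre-puber, 27310 to 35400 CPM, overlapped those in Infant. miR-126-5p was not called (log2 fold change 0.75), but was called higher without scaling (1.46) and lower with scaling from all entries (-2.27). The blood cell list summed to 947.8 to 4438 CPM in Adult and 857 to 5466 CPM in Infant. Infant 30, the testis library with the least of the hairpin, held the highest blood cell sum, 5466 CPM, against 857 and 1166 CPM in Infant 31a and 31b. Adult 33, with the most of the hairpin, held 4438 CPM of it, against 947.8 to 1316 CPM in the other Adult libraries. The list of undifferentiated spermatogonia summed to 101600 to 137500 CPM in Adult and 42390 to 95420 CPM in Infant, with 3 of 5 called higher and 1 lower, but 0 higher and 3 lower with scaling from all entries. The largest member was miR-21, at 102900 ± 18410 CPM in Adult (SD, n = 4) and 55260 ± 30130 CPM in Infant (n = 3), so these sums mostly give its level. The member called lower in the scaling used here was miR-146a, at 1736 ± 708 CPM in Adult and 4235 ± 1984 CPM in Infant (log2 fold change -1.29).

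The let-7 family is set beside the hairpin because its seed shares letters with the 3′ arm. Its 7 annotated members summed to 117400 to 250600 CPM in Adult and 238600 to 286900 CPM in Infant. Of these 2 were called lower and none higher (edgeR, median log2 fold change -0.62), where 49 of all 903 entries were called lower. Over the other scalings 2 to 7 were called lower, and without scaling 2 were called higher. let-7g and let-7a, its most abundant members in Adult, stood at 54330 ± 16000 and 50790 ± 12020 CPM in Adult (SD, n = 4), and at 57020 ± 9772 and 56850 ± 6727 CPM in Infant (n = 3). The let-7 seed hairpin 6_4351986 ranged from 22920 to 40960 CPM in Adult and from 79090 to 99220 CPM in Infant, the opposite order to that of the miR-202 hairpin. In Sperm the family summed to 64880 to 83500 CPM, with 5 of 7 called lower than in Adult, 1 higher and a median of -1.54. Of annotated miRNAs 48.1% were called lower in that comparison, with a median of -0.81, and of all entries 32.9%. Over the other scalings 3 to 6 of the family were called lower.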

How the data were processed

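The deposited count columns hold whole read counts, as the values themselves show. The deposited normalised columns are in RPM of each column's total. Trimmomatic and EquCab3.0 are named per the submitters' processing notes, while an aligner and a counting program are not given in the sources used here. Start coordinates count from 0 in the table and are printed from 1. The columns numbered 4 were told apart by prefix, since columns numbered 1 and 2, which only Sperm titles have, share it.

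For each of 274 annotated miRNAs the entry with the highest total was kept, and all 1461 predicted hairpins were added. Library sizes and TMM factors came from the annotated miRNAs of all 17 libraries. edgeR 4.0.16 in R 4.3.3 (filterByExpr, quasi-likelihood F test) was fitted to the 13 testis libraries (903 entries) and to the 8 Sperm and Adult libraries (775), with Benjamini-Hochberg adjusted p under 0.05 over all entries. Standard errors were derived from F and are approximate. DESeq2 1.42.0 and limma 3.58.1 were alternatives. Folding used ViennaRNA 2.7.2. No 2 libraries of 1 group agreed within sampling noise.

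Named miRNAs are those most and least like the hairpin, its neighbours in level and the most abundant members of each list. The epithelium and striated muscle lists matched no annotated entry and were not analysed here. The hairpin, the lists and the tests were chosen with earlier results of these data known.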

Additional observations from a re-analysis of the deposited data

Results flagged for a closer look

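The deposited table has a further column of totals, which no comparison used. For the miR-202 hairpin it holds 4368301 counts, against 3801677 summed over the 17 libraries. The remaining 566624 counts, 13.0% of the total, are not in the columns of the 17 libraries, and their origin was not tested. The same excess had a median of 9.33% over 145 annotated miRNAs with a total of at least 1000, and 29 of these had a larger share than the hairpin.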

How the results depend on the processing

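Pre-puber against Infant, Sperm against Adult and the test over the 4 stages kept their direction and their calls under all alternatives run, which were 13, 11 and 12, and with each of 6, 8 and 13 libraries left out. The log2 fold change of Pre-puber against Infant ranged from 2.01 to 2.82 under the alternatives and from 1.94 to 2.73 with 1 library left out. That of Sperm against Adult ranged from -8.87 to -7.10 and from -8.48 to -7.96. The adjusted p of the test over the stages ranged from 4.4e-06 to 0.00472 under the alternatives and from 7.5e-06 to 0.00235 with 1 library left out. Scaling from all entries ended the calls of Puber against Infant (0.34) and Adult against Infant (0.15), and turned the values for Adult against Puber (-0.19), Puber against Pre-puber (-1.90) and Adult against Pre-puber (-2.09). Relative to the median annotated miRNA all 5 stayed higher. The other 12 alternatives to each kept direction and call. Without scaling, Puber and Adult against Infant were 3.25 and 3.71. Leaving out 1 library moved Puber against Pre-puber between -0.063 (without Puber 11; also below 0 without Pre-puber 3b) and 0.52 (without Pre-puber 14), and its mean log2 level difference between -0.028 and 0.37. Leaving out Infant 30 gave the smallest values of Puber (2.14) and Adult (2.46) against Infant, both still called. The number of entries called also changed with the entries tested. With annotated miRNAs and the hairpin alone, 183 testis entries were tested in place of 903, and 163 in place of 775 for Sperm against Adult. The number called was then 44 in place of 549 for Pre-puber against Infant, 0 for 341 for Puber against Pre-puber and 70 for 736 for Puber against Infant. It was 90 for 769 for Adult against Infant and 50 for 674 for Adult against Pre-puber. Over the stages it was 86 for 763, and for Sperm against Adult 137 for 469. Among annotated miRNAs the calls went, in the same order, from 49 to 43, 17 to 0, 67 to 69, 90 to 89, 63 to 50, 88 to 85 and 128 to 136. The count for Puber against Pre-puber ranged from 0 (without Pre-puber 3a, with the 2 groups alone or with libraries of 1 title number summed) to 674 (without Pre-puber 14), with 532 by DESeq2 and 606 by limma-voom. For Pre-puber against Infant it was 275 without Pre-puber 14, 337 by limma-voom and 191 with the 2 groups alone, and for Adult against Puber 3 by limma-voom and 15 with the 2 groups alone. By Spearman's rho, 11 of the 19 likenesses named left the top positions. No paired analysis was possible because no 2 groups compared share 2 title numbers. In Sperm, counts of 92 to 668 limit the precision of the level.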
